A study of Bos taurus and Bos indicus x Bos taurus with 938 samples.

Results

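The step from 4 to 8 cells was examined in bovine embryos cloned by somatic cell nuclear transfer (SCNT), the replacement of an oocyte's own nucleus by one taken from a body cell. Members were the single blastomeres (the cells of a cleaving embryo) whose titles carry a cell number of 4 or 8 under the title prefixes 15243 and 15244, both of which hold SCNT embryos only. They make up 27.1% of all blastomeres in the deposited table and come from 46 embryos, 19.8% of those in it. The 8-cell group holds 80 blastomeres of 12 embryos under prefix 15243 and 65 of 9 embryos under 15244, and the 4-cell group 71 of 23 embryos and 6 of 2 embryos. Accessible DNA was tagged with the transposase Tn5 (ATAC-seq) in each blastomere separately. Per the labels' protocols the embryo of origin was kept for every blastomere, and the amount of enzyme was set by batch. The series also holds embryos made by in vitro fertilization (IVF). All SCNT libraries are labelled Bos taurus, while the IVF libraries are labelled Bos indicus x Bos taurus. The donor cells, the sex of the embryos and the time of collection are not named in the labels used here. Oocytes came from abattoir ovaries, so the oocytes of no group stand for a known animal.

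In a cleaving embryo the blastomeres divide with little growth, and the first cell cycles run on RNA and protein stored in the oocyte. The embryo's own genes are switched on in earnest around the 8-cell stage in cattle, a step called embryonic genome activation. After nuclear transfer the somatic chromatin has to be reset over these cycles, and errors in chromosome segregation are known in cloned and fertilized embryos alike.

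Each deposited value is 0 or 1 for 1 region in 1 blastomere and was read as a closed or an open call, and 3.83% of all values were open. The regions carry running numbers (V1 to V302830) with no coordinates and no gene names, so no result below names a gene, and neither marker genes nor donor cell identity could be checked. Read depth is unknown, so open calls per blastomere serve as the measure of depth. A missing call can come from few recovered fragments as well as from closed chromatin. Columns were tied to titles through their running numbers, counted from the start of each prefix. No source states this link, and the embryo and cell number of every blastomere rest on it. All blastomeres were in the table for 13 of 25 4-cell and 9 of 21 8-cell embryos. The prefixes are unevenly filled, with 23 of 25 4-cell embryos but 12 of 21 8-cell embryos under 15243, so that prefix was also taken alone. What the prefixes stand for is not stated.

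Several libraries stood apart from the rest. Blastomere 18C, with 2103 open calls, was the common member of the 8 most similar pairs of libraries. At 2000 calls each, its Jaccard index (shared over all distinct open regions) was 0.2466 with blastomere 23G. It was 0.233 with a blastomere under the other prefix and 0.222 with 19H. The median over all pairs of blastomeres with at least 2000 calls was 0.0187. These 4 blastomeres are assigned to different 8-cell embryos. Thinning to 2000 calls kept nearly all of the 2103 calls of 18C. Regions often open in SCNT blastomeres of other cell numbers, the commonly open regions defined below, held 74.2% of the calls of 18C. They held 56.7% in 23G, 54.6% in 19H and 57.4% in the blastomere under the other prefix. The mean over 8-cell embryos was 24.1% at 2000 calls per blastomere. The part of these shares in the similarity was not tested. No 2 columns of the table were identical. At the 4-cell stage, embryos 49, 87, 88 and 89 and an embryo with 2 blastomeres in the table (2389 and 14442 calls) had the most uneven coverage along the region numbering. They are called the 5 uneven embryos. The 5 were picked after their values were seen. Several results are also given without them, and the similarity of blastomeres of the same embryo without 18C and 23G.

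Open calls per blastomere were higher at 8 than at 4 cells by 1.57-fold, a difference that did not pass the threshold after adjustment. The embryo, represented by the median log10 calls of its blastomeres, was the replicate. The lowest, median and highest blastomere had 813, 4330 and 43077 calls at 4 cells and 810, 7061 and 31275 calls at 8 cells. The ranges of the blastomeres overlapped almost completely, and the shift lies in the middle of the distribution. Of the 21 8-cell embryos, 18 lay above the 4-cell median and 0 above the highest 4-cell embryo. The mean log10 calls were 3.82 ± 0.151 (SD, n = 21) and 3.62 ± 0.298 (SD, n = 25), a difference of 0.197 ± 0.068 (SE). A two-sided permutation test over embryos gave p = 0.00777, or 0.0622 after Benjamini-Hochberg adjustment over the 8 embryo-level results given here. Within prefix 15243 the difference was 0.179 (permutation p = 0.0626, n = 12 and 23). For alternatives of the embryo-level results, adjusted p-values here and below keep the main p-values of the other results. The difference over both prefixes passed with blastomeres under 1000 calls left out (0.185, adjusted p = 0.0432). It also passed without the 5 uneven embryos (0.238, adjusted p = 0.0110). Those 5 were picked after their values were seen and include embryo 89, the highest 4-cell embryo at 4.23. Leaving embryo 89 out raises the difference by itself.

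**Figure D1:**
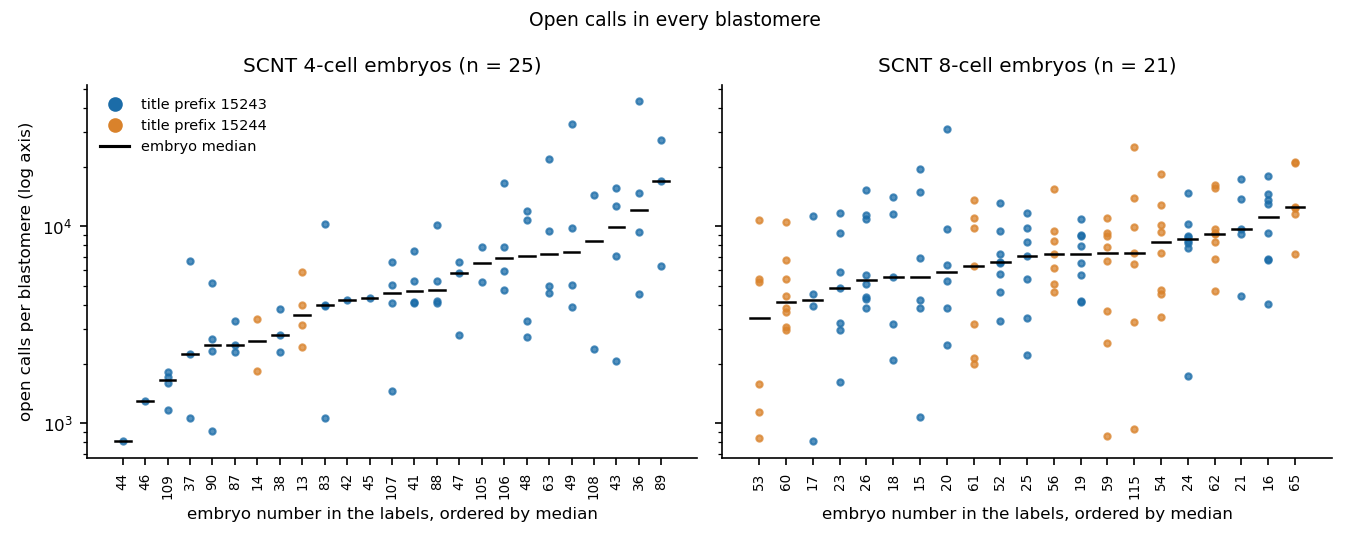
Open calls in each blastomere (points, log axis) by embryo, with the embryo median as a bar, for 25 SCNT 4-cell embryos (left) and 21 SCNT 8-cell embryos (right); blue is title prefix 15243 and orange 15244. The 4-cell medians run from 813 to 17082 calls and the 8-cell medians sit between 3404 and 12520 calls.

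The embryos of the 8-cell group lay closer together than those of the 4-cell group. At 4 cells 31.5% of the variance of log10 calls lay between embryos and at 8 cells 8.50%, among embryos with at least 2 blastomeres in the table. Within prefix 15243 the shares were 31.1% and 0%. The SD among sister blastomeres was 0.297 at both stages. Per embryo, the spread among at least 3 sisters was 0.291 ± 0.108 (SD, n = 21) at 8 cells and 0.266 ± 0.120 (SD, n = 18) at 4 cells, a difference of 0.0252 ± 0.0367 (SE) that did not pass (permutation p = 0.491). The low 4-cell end is held by embryo 44, with 1 blastomere of 813 calls, embryo 46, with 1 of 1292 calls, and a complete embryo whose 4 blastomeres all had at most 1826 calls. The high end is embryo 89, with 6305, 17082 and 27358 calls in its 3 blastomeres. At 8 cells the lowest embryo was 53 (844 to 10812 calls) and the highest 65 (7196 to 21160 calls).

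More regions were open in most blastomeres of the 8-cell group, a count that moves with depth and with the number of blastomeres. At least 1 call was found in 254139 regions at 8 cells and in 196252 at 4 cells. Regions open in at least 50% of blastomeres numbered 1291 at 8 cells and 413 at 4 cells, and regions open in at least 25% of blastomeres 2935 and 1900. The part of depth in these counts was not tested. At 3 blastomeres of 2000 calls per embryo, the order was the other way round. There an 8-cell embryo covered 5648 ± 170.9 distinct regions (SD, n = 21) and a 4-cell embryo 5749 ± 85.6 (SD, n = 16), a difference of -101.2 ± 43 (SE, permutation p = 0.0341, adjusted p = 0.136). Within prefix 15243 the difference was -155.8 and passed (adjusted p = 0.0487), in an adjustment that keeps the all-prefix p-values of the other results. Without 8-cell embryos 15 to 20 and 23, picked for high values in a stretch described below, the difference was -11.0 (permutation p = 0.697). Among complete embryos only it was -3.56 (permutation p = 0.917, n = 9 and 12).

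Of all stretches of the region numbering, the one with the largest difference in coverage between the stages was also the one most often open. Regions V275101 to V278600, called the commonly open stretch here, are 3500 regions of which 27.5% of all values in the table are open, against 2.95% to 4.47% in the numbered blocks described further on. Coverage of a stretch was taken as observed over expected open calls, given each blastomere's depth and how often each region is open, relative to the same ratio over the numbered blocks. The mean over embryos was 1.31 ± 0.803 (SD, n = 21) at 8 cells and 0.799 ± 0.282 (SD, n = 22) at 4 cells. The lowest, median and highest embryos were 0.425, 1.05 and 3.57 at 8 cells and 0.249, 0.934 and 1.13 at 4 cells. Every 4-cell embryo thus lay at or below 1.13, and the groups overlapped below that value. Over the 32 stretches tested, the difference of 0.511 did not pass (permutation p = 0.00389, adjusted p = 0.0622). Of the 32 stretches 0 passed (0.0%), and 4 (12.5%) had an unadjusted p under 0.05.

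Within prefix 15243 the commonly open stretch passed, with 1.63 (n = 12) at 8 cells and 0.800 (n = 20) at 4 cells, a difference of 0.828 (permutation test, adjusted p = 0.0102). With differences taken and labels permuted within prefix it passed too (0.698, adjusted p = 0.0115). Among complete embryos only it was 0.155 (0.951 at 8 cells, n = 9, and 0.797 at 4 cells, n = 12, permutation p = 0.327, adjusted p = 0.856). The excess sat in 7 of the 12 8-cell embryos of that prefix. Embryos 15, 16, 17, 18, 19, 20 and 23 had values of 2.50, 1.71, 3.57, 2.69, 1.54, 1.52 and 1.92. Embryos 21, 24, 25, 26 and 52 of the same prefix had 1.10, 0.794, 0.629, 0.944 and 0.609. In the title numbering embryo 21 lies between embryos 20 and 23, so the high embryos are neighbours apart from it. In prefix 15244 the 9 8-cell embryos ran from 0.425 to 1.41, which overlaps the 4-cell range. Without those 7 embryos, which were picked for these values, the difference was 0.0611 and 0 of 32 stretches passed. A fall on leaving them out was fixed by the choice.

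**Figure D2:**
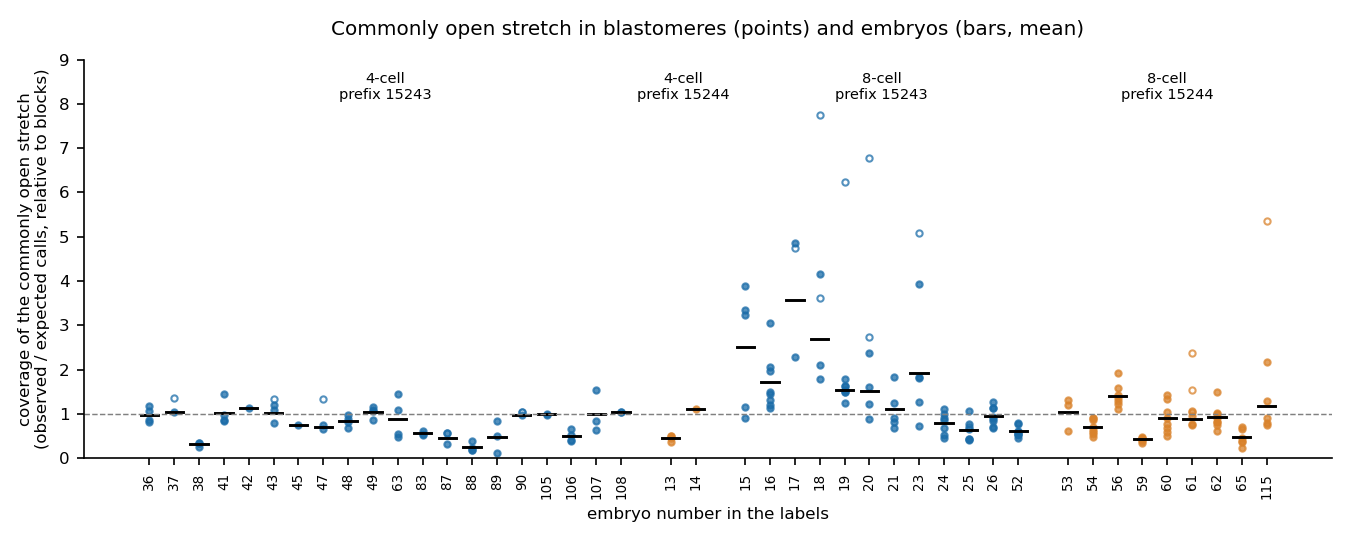
Coverage of the commonly open stretch (observed over expected calls relative to the numbered blocks, linear axis) in each blastomere with at least 2000 calls (points) and the embryo mean (bars), by stage, title prefix and embryo number. Open circles are blastomeres with under 2000 calls in the numbered blocks, which do not enter the mean, and the highest single value, 7.74 in an 8-cell blastomere, contrasts with a 4-cell maximum of 1.54.

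The excess was uneven among the blastomeres of an embryo. Among blastomeres with at least 2000 calls, 21 at 8 cells and 0 of 66 at 4 cells had a coverage of the stretch above 2. The 21 were 18 of 76 blastomeres of prefix 15243, in the 7 embryos named above, and 3 of 60 of prefix 15244, in embryo 61 and 1 other. Embryo 19 shows the contrast within an embryo, with 1 of 8 blastomeres above 2 (19H at 6.25) and the lowest at 1.25. In embryo 17 all 3 blastomeres with enough calls were above 2, at 2.29 to 4.86. The bound of 2 was set after seeing the values. These blastomeres were mostly shallow, with 2103 to 11578 calls (median 4145), and 19 of 21 had under 8000. Over blastomeres the percent of calls in the stretch fell with log10 calls at both stages, as a description. Pearson's r was -0.563 at 8 cells (76 and 60 blastomeres of the 2 prefixes) and -0.423 at 4 cells (66 blastomeres). Unlike coverage, this percent is not set against expected calls. With 3500 regions of 0 or 1 in the stretch, it is limited in deep libraries. The correlation therefore does not measure the excess in coverage. The part of depth in the excess was not tested.

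Commonly open regions were also pooled, wherever they lie in the numbering, and their share of calls did not pass between the stages. A region was called commonly open if at least 25% of the SCNT blastomeres of other cell numbers had it open, which chose 3540 regions without use of the 4- and 8-cell data. At 2000 calls per blastomere they held 24.1 ± 8.69% of calls at 8 cells (SD, n = 21) and 20.3 ± 5.46% at 4 cells (SD, n = 22), a difference of 3.87 ± 2.22 percentage points (SE, permutation p = 0.0862, adjusted p = 0.172). Within prefix 15243 it was 6.38 percentage points (permutation p = 0.0262, adjusted p = 0.0909). The difference passed among blastomeres of 2000 to 8000 calls only (30.3% and 22.2%, adjusted p = 0.0311), was 0.362 among complete embryos (permutation p = 0.880, n = 9 and 12) and turned to -0.771 without 8-cell embryos 15 to 20 and 23 (permutation p = 0.680). Of the 3540 regions, 1433 lie in the commonly open stretch and 1413 in the numbered blocks. As the embryos left out were picked for that stretch, a fall without them was in part fixed by the choice. For the 1413, the median log2 ratio of 8- over 4-cell coverage in the test of single regions was 0.04, beside 0.26 for all 3540, 0.44 for the stretch and -0.15 for all tested regions.

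No single region passed between the stages. The 96063 regions with a call in at least 10% of the 21 8-cell and 24 4-cell embryos were tested on observed against expected calls per embryo, with the limma-moderated quasi-Poisson score test bounded below by an exact binomial p. After Benjamini-Hochberg adjustment 0 (0.0%) had an adjusted p under 0.05, and an unadjusted p under 0.05 was found for 1.8%, of which 60.7% were higher at 8 cells. The score test without the exact bound also gave 0, with 9332 regions at an unadjusted p under 0.05. Within prefix 15243 it was 0 of 84946, with 2038 at an unadjusted p under 0.05. The totals limit what could be seen. A tested region had a median of 8 calls over both stages, and only 3.56% of the regions had enough calls to pass a single-test limit of 5.2e-07 if every call had been at 8 cells, against 23.5% if every call had been at 4 cells. A region that did not pass is therefore not shown to be alike at both stages.

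The split of directions rests on the scaling and on the exact bound. With depth taken from the commonly open regions, 8.67% of the 2237 regions at an unadjusted p under 0.05 were higher at 8 cells, against 60.7% otherwise, and the median log2 ratio over tested regions moved from -0.15 to -0.59. Without 8-cell embryos 15 to 20 and 23, picked for their high coverage of the commonly open stretch, the share higher was 36.7%. With complete embryos only it was 38.9%. Directions below are therefore read relative to other regions of the same fit.

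Regions with a low unadjusted p were gathered in the commonly open stretch. There 401 of 2588 tested regions (15.5%) had an unadjusted p under 0.05, 399 of them higher at 8 cells and 2 lower. In the numbered blocks it was 1.30% of 85007, of which 43.9% were higher. In the mixed stretch, the part of the numbering after the blocks in which neighbouring regions are only loosely related, it was 2.76% of 7279, with 150 higher and 51 lower. The stretch therefore differed from the blocks as a whole in share and in direction, over the same embryos. How often a region is open was not held equal in this comparison. Among the 1413 commonly open regions of the blocks the share was 6.30%, of which 74.2% were higher. Among the other block regions it was 1.21%, of which 41.3% were higher. Without 8-cell embryos 15 to 20 and 23 the shares were 0.715% in the commonly open stretch, 1.54% in the blocks and 1.70% in the mixed stretch. As those embryos were picked for their coverage of the commonly open stretch, the fall there was fixed by the choice. By how often a region was open, 91.1% of such regions were higher among those with a call in 50 to 75% of embryos, and 49.3% among those with a call in 10 to 25%.

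**Figure D3:**
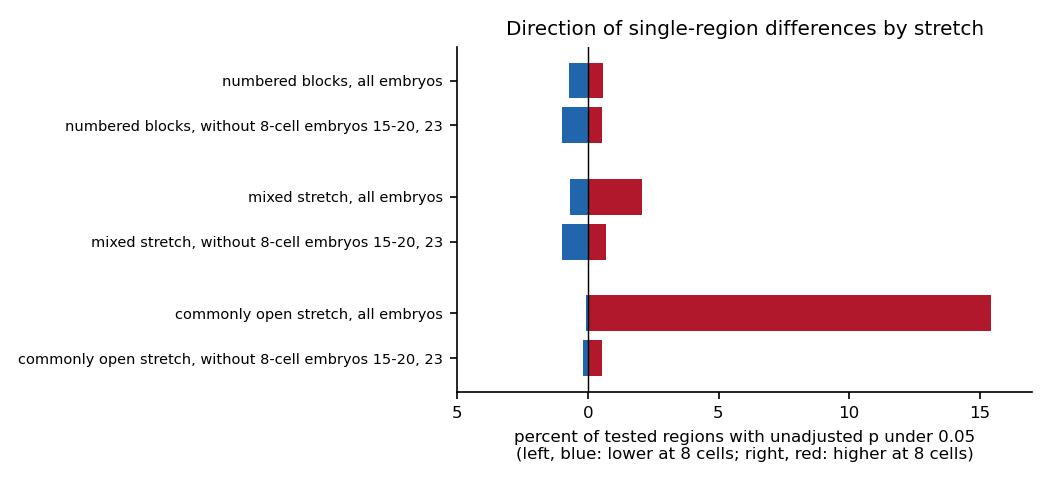
Percent of tested regions with an unadjusted p under 0.05 that were higher (red, right) or lower (blue, left) at 8 than at 4 cells, in 3 parts of the region numbering, with all embryos and without 8-cell embryos 15 to 20 and 23. The bar for the commonly open stretch falls from 399 to 12 higher regions when those embryos are left out.

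The regions with the smallest p in each direction, none of which passed (adjusted p = 1 for each, limma-moderated test), give the scale of the differences. Among the 10 higher at 8 cells, V252075 of block 28 had 58 calls in 19 of 21 8-cell embryos and 5 calls in 4 of 24 4-cell embryos, a log2 ratio of coverage of 2.30 ± 0.61 (SE). It was open in 40.0% of 8-cell and 6.49% of 4-cell blastomeres, beside 21.1% of SCNT blastomeres of other cell numbers. V95737 of block 10 had a call in every 8-cell embryo (71 calls) and in 8 of 24 4-cell embryos (8 calls), at 1.91 ± 0.55 (SE). V95737 was open in 10.4% of SCNT 4-cell and 12.7% of SCNT 2-cell blastomeres. In IVF embryos it was open in 62.1% of 8-cell and 52% of 4-cell blastomeres. These shares are not adjusted for depth, and the median at 4 cells was 8030 calls in IVF and 4330 in SCNT. The commonly open stretch gave V275682 (57 and 6 calls at 8 and 4 cells), V276261 (72 and 10) and V278016 (97 and 17).

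The other 5 of the 10 higher regions lie close together in the mixed stretch. They are V294543 (86 and 13 calls at 8 and 4 cells), V294788 (30 and 1), V294903 (46 and 4), V294908 (39 and 2) and V294911 (91 and 15). Of the tested regions from V294501 to V295000, a window chosen after these values were seen, 28 (11.5%) had an unadjusted p under 0.05 and all 28 were higher at 8 cells. Over the other 7036 tested regions of the mixed stretch the share was 2.46%. Expected calls were refitted without 8-cell embryos 15 to 20 and 23, so differences between the 2 fits are not on the same scale. Observed over expected calls at 8 and 4 cells were then 1.54 and 0.144 for V294788, against 1.39 and 0.106 with all embryos. For V294903 they were 1.41 and 0.328, against 1.31 and 0.267, and for V294908 1.45 and 0.288, against 1.36 and 0.162. The unadjusted p rose to 0.0229, 0.0104 and 0.0492 (limma-moderated test, fewer embryos). For V294543 the values were 1.25 and 0.578, against 1.24 and 0.443, and for V294911 1.24 and 0.607, against 1.22 and 0.476.

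The regions lower at 8 cells with the smallest p were rare ones. With few calls, the exact bound lets a region reach a low p more readily in this direction. Of the 10 with the smallest p, 9 had no call in any 8-cell blastomere, which allows a share of up to 2.07% (3 calls of the total, counting error only). Without a call at 8 cells, these 9 passed the filter through 4-cell embryos alone and were then picked by p. V113777 of block 12 and V191107 of block 23 had 9 calls each at 4 cells, in 6 and 7 of 24 embryos. Their 4-cell coverage was 6.68 times that of a floor of 3 calls over the 8-cell group. Such a ratio carries neither the choice of regions nor the counting error at 4 cells. The other 7 had 6 or 7 calls at 4 cells and a ratio to that floor of 4.43 to 5.18. V278543, in the commonly open stretch, had 1 call at 8 cells and 8 at 4 cells, each of the 8 in a different embryo, against the direction of its neighbours.

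The first 274100 regions fall into 29 consecutive blocks, within which regions are open in the same blastomeres. Blocks were drawn from all 419 blastomeres of the series with at least 8000 calls, these stages included. The number of regions per block tracked the extent of the genes of the 29 bovine autosomes (RefSeq, assembly ARS-UCD2.0) with r = 0.984 when autosome names are sorted as text and 0.104 when sorted as numbers, a description over 29 points. Whether the blocks are chromosomes is not stated in the sources used here, and they are called by number. Coverage of a block in 1 blastomere was compared with the other blocks of the same blastomere, in blastomeres with at least 2000 block calls, which left 58 of 22 embryos at 4 cells and, at 8 cells, 68 of 12 embryos under prefix 15243 and 56 of 9 under 15244.

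No single block passed between the stages. Block 27 was the nearest to a difference, with 1.05 ± 0.103 (SD, n = 21) at 8 cells and 0.880 ± 0.221 (SD, n = 22) at 4 cells (permutation p = 0.00321, adjusted p = 0.0622). Among complete embryos only it had 1.01 and 0.989 (permutation p = 0.829, n = 9 and 12). Block 14 had 1.04 and 0.932 (permutation p = 0.0324, adjusted p = 0.259). The mixed stretch had 1.12 ± 0.336 and 0.930 ± 0.174 (permutation p = 0.0159, adjusted p = 0.170) and passed within prefix 15243 (difference 0.315, adjusted p = 0.0346). The largest falls among the blocks, none of which passed, were -0.157 in block 23, -0.116 in block 5 and -0.105 in block 29. Those of blocks 23 and 29 involve the single embryos described next.

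Coverage along the blocks was more uneven in a few 4-cell embryos than in any 8-cell embryo. Unevenness, the SD over the 29 blocks of log2 coverage at 2000 block calls, was 0.405 ± 0.0871 (SD, n = 21) at 8 cells and 0.540 ± 0.357 (SD, n = 22) at 4 cells, a difference of -0.135 ± 0.079 (SE, permutation p = 0.0706, adjusted p = 0.172). The lowest, median and highest embryos were 0.264, 0.394 and 0.595 at 8 cells and 0.280, 0.417 and 1.92 at 4 cells. The medians lay close together and the groups differed in the upper end, which holds embryos 49 (0.623), 88 (0.772), 87 (0.855) and 89 (1.92) and the embryo with 2 blastomeres (0.913). Without these 5, which were picked for their values, the 4-cell mean was 0.399 and the difference 0.00534 (permutation p = 0.854), and among complete embryos the difference was -0.0181 (permutation p = 0.744, n = 9 and 12).

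Embryo 89 departed most. Its blastomere 89C lacked 17 of the 29 blocks, taking under 0.1 of the expected calls as lacking. Block 1 had 10 calls there where 357 were expected, while blocks 15, 17, 18, 26 and 29 stood at 4.54, 5.04, 4.41, 4.38 and 4.63 times the expected calls. The calls of 89C thus came from a minority of the numbering. With block 29 cut into 4 parts of equal region count, 89C stood at 7.25, 6.18 and 5.66 in the first 3 parts and at 0.0499 in the last, a step inside a block. Sisters 89A and 89B were deeper (27358 and 17082 calls) and mirrored each other in part. Block 11 stood at 0.0891 in 89A and 2.18 in 89B, block 9 at 0.140 and 2.54, and block 21 at 2.18 and 0.102. The correlation of log2 coverage over the 29 blocks was -0.500 between 89A and 89B and -0.506 between 89B and 89C, where the median over 63 pairs of 4-cell sisters was 0.119.

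Embryo 49 departed mainly in 1 block. Block 29 stood at 0.0535 in 49A (60 calls) and 0.120 in 49C, and at 4.59 in 49B and 2.92 in 49D. All 4 blastomeres of the embryo were therefore either far below or far above the expected calls, as 2 pairs. The departure ran the whole length of the block, with the 4 parts between 0.0281 and 0.0670 in 49A and between 3.53 and 5.69 in 49B. The 4 lowest correlations among all 4-cell sisters, -0.846 to -0.603, were those between a low and a high blastomere of this embryo. Blastomere 49A also had block 15 at 3.62, with parts at 3.25 to 3.94, while its sisters had 0.39 to 0.68. Every other block of the 4 blastomeres stood between 0.61 and 1.56.

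Embryo 87 held the highest value of a single block in either stage, block 23 at 6.36 in 87B, with parts at 5.06 to 9.47, and 1.57 in its sister 87C. In embryo 88 sisters 88B and 88C departed alike in some blocks and not in others. Blocks 14 and 18 stood at 0.34 and 0.15 in 88B and at 0.34 and 0.21 in 88C, and block 28 at 2.18 and 2.57, while block 7 stood at 3.71 and 0.878 and block 10 at 1.21 and 0.314. In 88A block 28 stood at 0.798. Coverage of the commonly open stretch was 0.448 in embryo 87, 0.249 in embryo 88 and 0.485 in embryo 89, beside 1.04 in embryo 49 and 0.315 in embryo 38, which is not among the 5 uneven ones. In the 1 blastomere with enough block calls of the embryo with 2, block 3 stood at 0.16 and block 22 at 2.59. Embryos 87, 88 and 89 have neighbouring numbers in the labels. What sets block coverage in these blastomeres was not tested.

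At 8 cells no blastomere lacked a block. The count was 0 of the 68 and 56 blastomeres of the 2 prefixes, which allows a share of up to 2.42% (3 of the total, counting error only), against 4 of 58 at 4 cells (6.90%, exact 95% interval 1.91 to 16.7), in 2 of 22 embryos and with 20 lacking blocks in all. Blastomeres of 1 embryo are not independent, so the embryo is the unit of the test. Per embryo the percent of blastomeres lacking a block was 0 at 8 cells (n = 21) and 5.68 ± 21.7% (SD, n = 22) at 4 cells (permutation p = 0.489), and with a bound of 0.2 it was 1.19% and 14.8% (permutation p = 0.0769). The 4 blastomeres come from embryos 49 and 89, and without the 5 uneven embryos the value was 0 at both stages. The lowest value at 8 cells was 0.188, block 15 in 52F. High blocks were found at 8 cells as well. Block 19 stood at 3.92 in 61D, and at 0.450 and 0.343 in its sisters 61F and 61G. Block 17 stood at 3.72 in 53A and block 11 at 3.21 in 19E, whose 6 sisters with enough calls had 0.759 to 1.10. A block above 2, a bound set after seeing the values, was found in 11 blastomeres at 8 cells (8.87%, in 7 of 21 embryos) and in 16 at 4 cells (27.6%, in 10 of 22 embryos). Values of this size were thus found at both stages.

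**Figure D4:**
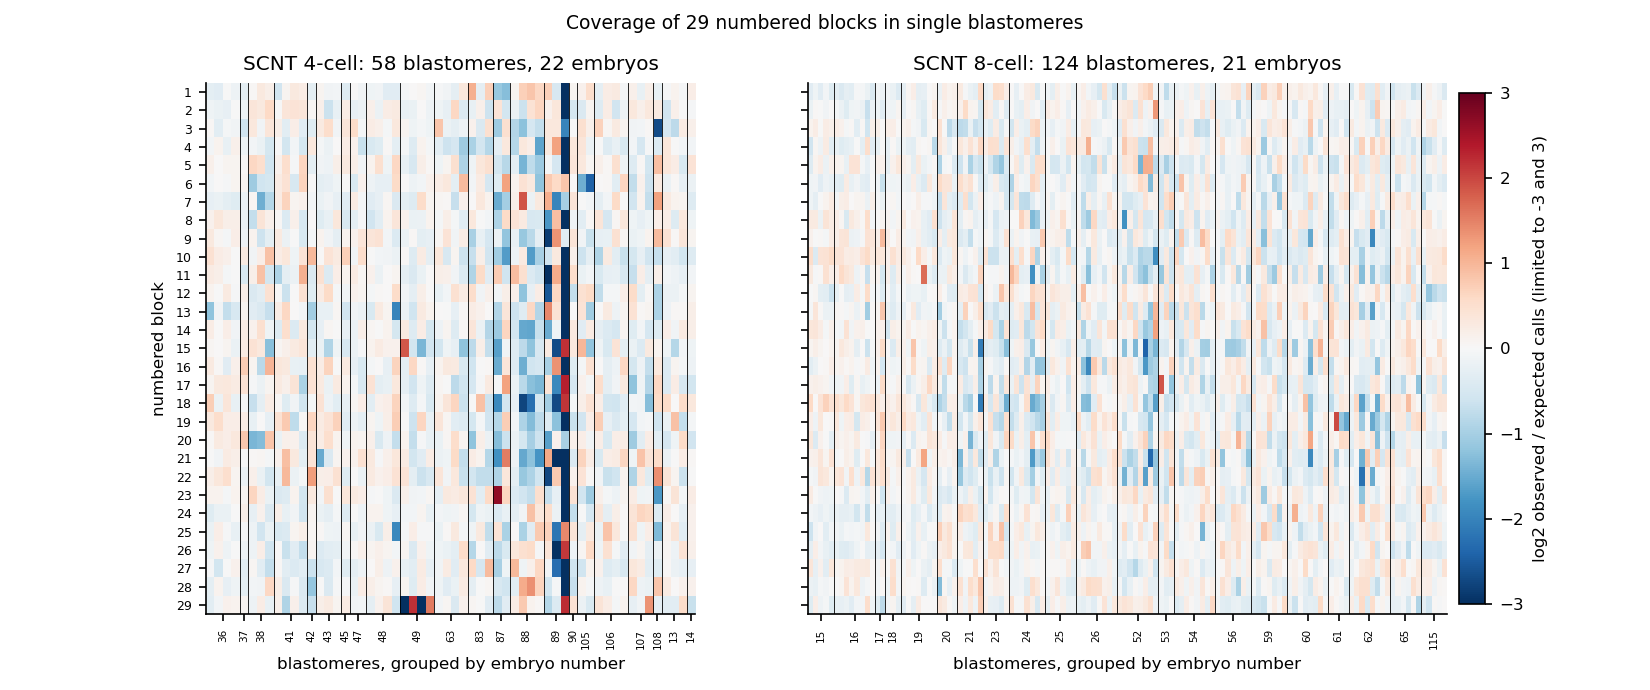
Log2 observed over expected open calls (colour, limited to -3 and 3) of 29 numbered blocks (rows) in 58 4-cell blastomeres (left) and the 68 and 56 8-cell blastomeres of the 2 prefixes (right), grouped by embryo. Dark cells are concentrated in 4-cell embryos 49, 87, 88 and 89, including block 29 in all 4 blastomeres of embryo 49, and the lowest 8-cell value is 0.188 times the expected calls.

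Sister blastomeres shared slightly more than blastomeres of different embryos at both stages, and the difference between the stages did not pass. At 2000 calls each, the Jaccard index of sisters was 0.0330 at 8 cells and 0.0242 at 4 cells, and with other embryos of the same stage and prefix 0.0261 and 0.0207. The excess was above 0 in 16 of 21 8-cell embryos and 13 of 19 4-cell embryos, and its mean was 0.00697 ± 0.0101 and 0.00351 ± 0.00614 (SD), a difference of 0.00345 ± 0.00261 (SE, permutation p = 0.213). The highest excesses at 8 cells were those of embryos 17 (0.0349) and 18 (0.0309), the embryos highest in the commonly open stretch. Without 18C and 23G the difference was 0.00290, and without 8-cell embryos 15 to 20 and 23 it turned to -0.000648. Those embryos were picked for the commonly open stretch and include 17 and 18, so a fall was in part fixed by the choice. The correlation of block coverage between sisters exceeded that with other embryos by 0.115 ± 0.153 (SD, n = 21) at 8 cells and 0.0540 ± 0.195 (SD, n = 16) at 4 cells (permutation p = 0.293). Over single pairs it ran from -0.593 (61D with 61F) to 0.844 (16A with 16D) at 8 cells.

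Among the 8-cell embryos the prefixes could be compared directly, with 9 embryos under 15244 and 12 under 15243. None of the 8 embryo-level measures passed (smallest adjusted p = 0.562, permutation test). The percent of blastomeres lacking a block was 0 in every 8-cell embryo and could not differ. Coverage of the commonly open stretch is not among the 8 and was not tested between the prefixes. It ran from 0.425 to 1.41 under 15244 and from 0.609 to 3.57 under 15243. Log10 open calls were 3.83 ± 0.189 and 3.81 ± 0.125 (SD). The percent of calls in commonly open regions was 21 ± 5.43 and 26.4 ± 10.1 (SD), the larger spread lying in the prefix with the 7 high embryos. Of 122170 regions tested singly between the prefixes 0 passed by the limma-moderated test, and 1.64% had an unadjusted p under 0.05. Between the stages it was 1.8%, and the exact bound limits both shares. By the score test without the bound they were 7.09% between the prefixes and 9.71% between the stages.

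The step from 4 to 8 cells was set beside that of IVF embryos (14 8-cell and 22 4-cell embryos, all under other prefixes) to ask whether it is particular to SCNT, and it was not shown to be. Log10 calls were higher at 8 cells by 0.197 in SCNT and 0.286 in IVF (permutation of type among residuals, p = 0.487). The percent of calls in commonly open regions differed by 3.87 and -1.71 percentage points (p = 0.103, permutation). The IVF value turned to 1.78 within prefix 15287, which holds all 14 IVF 8-cell but 5 of 22 IVF 4-cell embryos, and to 5.79 among blastomeres of 2000 to 8000 calls. Sharing between sisters differed by 0.00356 and 0.00184 (p = 0.702, permutation), and unevenness by -0.136 and -0.352 (p = 0.241, permutation). The smallest adjusted p over these 4 permutation tests was 0.4125. The commonly open stretch, for which the difference between types was not tested, stood at 1.06 ± 0.411 in IVF 8-cell (SD, n = 14) and 1.29 ± 0.362 in IVF 4-cell embryos (SD, n = 20), beside 1.25 and 0.761 in SCNT in the same fit. The highest IVF embryo reached 2.17, at 4 cells.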

How the data were processed

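The submitters' processing notes name Bowtie2 2.2.6, FastQC 0.10.1 and bedtools, and neither the build nor the rule for calling regions is stated. As deposited by the authors, the table holds 302830 regions by 819 columns of 0 or 1, which no header explains, so its unit was taken as an open call and tests for read counts were not used. Of 938 labelled libraries 119 had no column; columns were tied to titles with an offset of 0 (15243) or 499 (15244). The members are 222 of 819 blastomeres and 46 of 232 embryos (145 at 8 and 77 at 4 cells). Columns of no sample numbered 0.

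The embryo was the replicate. The 8 IVF libraries titled by letter only were taken as 1 embryo. Whether embryos came from separate days or donors is not labelled, so p-values measure the spread between embryos. The expected chance of an open call was 1 - exp(-ab), with a blastomere factor a and a region factor b set from the totals of these blastomeres in 12 iterations. Regions were tested per embryo with at least 1000 calls by a quasi-Poisson score test moderated with limma 3.58.1 (R 4.3.3). Its p was bounded below by an exact binomial p and Benjamini-Hochberg adjusted at 0.05. Embryo values were compared by two-sided permutation with 100000 resamples (Python 3.11.15, NumPy 2.4.6), adjusted over 8 results, with thinning to 2000 calls in 20 draws and a pseudocount of 0.5 for log2 coverage. Each alternative of these results was adjusted with the main p-values of the other results, not with those of the same alternative. Thinning calls does not undo the saturation of deep libraries. The scripts were tested on simulated data. Intervals are 95% exact binomial and, like limits from 0, cover counting error only.

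Regions named are the 10 with the smallest unadjusted p in each direction that went the same way within prefix 15243, and the stretches named are the 3 with the largest difference in each direction and those with an unadjusted p under 0.05; other blastomeres and regions singled out were chosen after their values were seen. Members and lists were chosen with earlier results of these data known. Alternatives are listed in the closing section.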

Additional observations from a re-analysis of the deposited data

How the results depend on the processing

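Of 62 alternative values of the 8 embryo-level results, 50 kept their direction and their side of the threshold, 6 passed it, 5 turned and 1 went to 0.0: the percent of blastomeres lacking a block, without the 5 uneven 4-cell embryos. Those that passed were open calls with at least 1000 calls per blastomere (0.185) and without the 5 uneven 4-cell embryos (0.238), the percent of calls in commonly open regions among blastomeres of 2000 to 8000 calls (8.12), and distinct regions within prefix 15243 (-155.8), at 5000 calls (-476.5, 5 4-cell embryos) and at 2000 to 8000 calls (-253.2). Without 8-cell embryos 15 to 20 and 23, picked for the commonly open stretch, commonly open regions turned to -0.771 and sharing to -0.000648. With complete embryos only, the commonly open stretch fell from 0.511 to 0.155, the spread among sisters turned to -0.0538 and sharing to -0.000457. Without the 5 uneven embryos unevenness turned to 0.00534. In each case the cause was not tested. Stretches that passed numbered 2 within prefix 15243 and 1 with permutation within prefix, against 0. Single regions that passed numbered 0 in all 10 alternatives, and each region named kept its direction in the refits that tested it, which within prefix 15243 its choice had fixed. The 10 lower ones were not tested with the 25% filter or thinned. Against IVF, sharing turned to -0.00246 without those 7 embryos, and at 2000 to 8000 calls open calls turned to 0.0912 and unevenness to -0.00122. Leaving out the 2 sets of embryos and the window of 2000 to 8000 calls were chosen after seeing the data. No paired analysis was possible because the groups share no embryo numbers. Few calls per region limit the test of single regions.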
